A study of Saccharomyces cerevisiae with 18 samples.

Results

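Transcripts of 7 genes of fatty acid synthesis and activation in Saccharomyces cerevisiae were followed over 18 arrays: ACC1, FAS1, FAS2, OLE1, ELO1, FAA1 and FAA4. They were listed by name, with earlier results of these data known, out of 5449 genes measured, and each had 1 probe set. The lowest signal of any of them on any array was 6.86 on the log2 scale, well above the line of 3.25 below which a signal was treated as close to the floor. All 7 therefore gave usable values in every group. By the RefSeq gene table, ACC1 (YNR016C) lies on chromosome XIV, FAS1 (YKL182W) on XI, FAS2 (YPL231W) on XVI, OLE1 (YGL055W) on VII, ELO1 (YJL196C) on X, FAA1 (YOR317W) on XV and FAA4 (YMR246W) on XIII, so that no pair of them shares a chromosome.

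Acc1, the acetyl-CoA carboxylase, makes malonyl-CoA in the first committed step of fatty acid synthesis, and Fas1 and Fas2 are the beta and alpha subunits of the cytosolic fatty acid synthase that uses it. Elo1 elongates medium-chain acyl chains, Ole1 is the delta-9 desaturase that introduces the double bond of palmitoleate and oleate, and Faa1 and Faa4 are acyl-CoA synthetases that activate fatty acids taken up or released inside the cell. The kinase Snf1, the yeast relative of mammalian AMP-activated protein kinase (AMPK), is known to phosphorylate and inhibit the Acc1 protein. An array reads transcripts and says nothing about that phosphorylation.

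The study set 2 altered kinases against normal Snf1. All strains are described as lacking the chromosomal SNF1 gene (snf1Δ) and as differing in the plasmid they carried. The Alpha1 strain carried HA-Alpha1, in which the catalytic domain of the AMPK subunit Alpha1 is joined to the Snf1 regulatory domain. The T210A plasmid, HA-T210A, encodes a Snf1 whose activating threonine is replaced by alanine. The Snf1 strain carried HA-Snf1, so that the reference strain was itself a plasmid-bearing deletion mutant and not an unmodified wild type.

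Each strain was sampled at low glucose (5 g/L) and at high glucose (15 to 20 g/L) during aerobic growth at 30 °C and pH 5.0 in bioreactors started at 40 g/L, in what the labels call steady state, and 3 arrays were made for every combination of strain and glucose level. They are labelled biological replicates, with no word on whether they came from separate cultures. The p-values set each difference against the spread between these samples, pooled over all 6 groups. That spread may in part be technical. Differences are given as log2 ± SE from a limma fit to all 18 arrays, with p-values adjusted over all 5449 genes of a comparison. A difference was called at an adjusted p under 0.05. The signals come from whole cultures, in which fewer cells that carry a transcript and less of it per cell cannot be told apart.

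With 3 arrays a group, precision is limited by their number. Arrays of a group correlated at 0.992 to 0.998 in 5 groups, but at 0.978 to 0.984 in Alpha1 at low glucose, where the median SD of a gene was 0.221 against 0.104 to 0.125 elsewhere. The 261 genes of chromosome VIII, which holds none of the 7, had a median T210A minus Snf1 difference of 0.74 at high glucose and 0.57 at low glucose. Their median Alpha1 minus Snf1 difference was -0.01 at high and 0.02 at low glucose. The T210A strain thus differed from Snf1 over a whole chromosome. The part of this shift in T210A differences of genes on other chromosomes was not tested. INO1, an inositol synthesis gene, was higher at low than at high glucose in all 3 strains, with mean log2 signals of 11.95 against 3.61 in Alpha1, 9.07 against 3.31 in T210A and 10.40 against 3.86 in Snf1. The SNF1 probe set averaged 12.94 and 12.36 in Alpha1 at low and high glucose, 9.31 and 7.08 in T210A, and 8.57 and 7.17 in Snf1. That probe set may read plasmid transcripts, so it does not test the deletion.

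**Figure D1:**
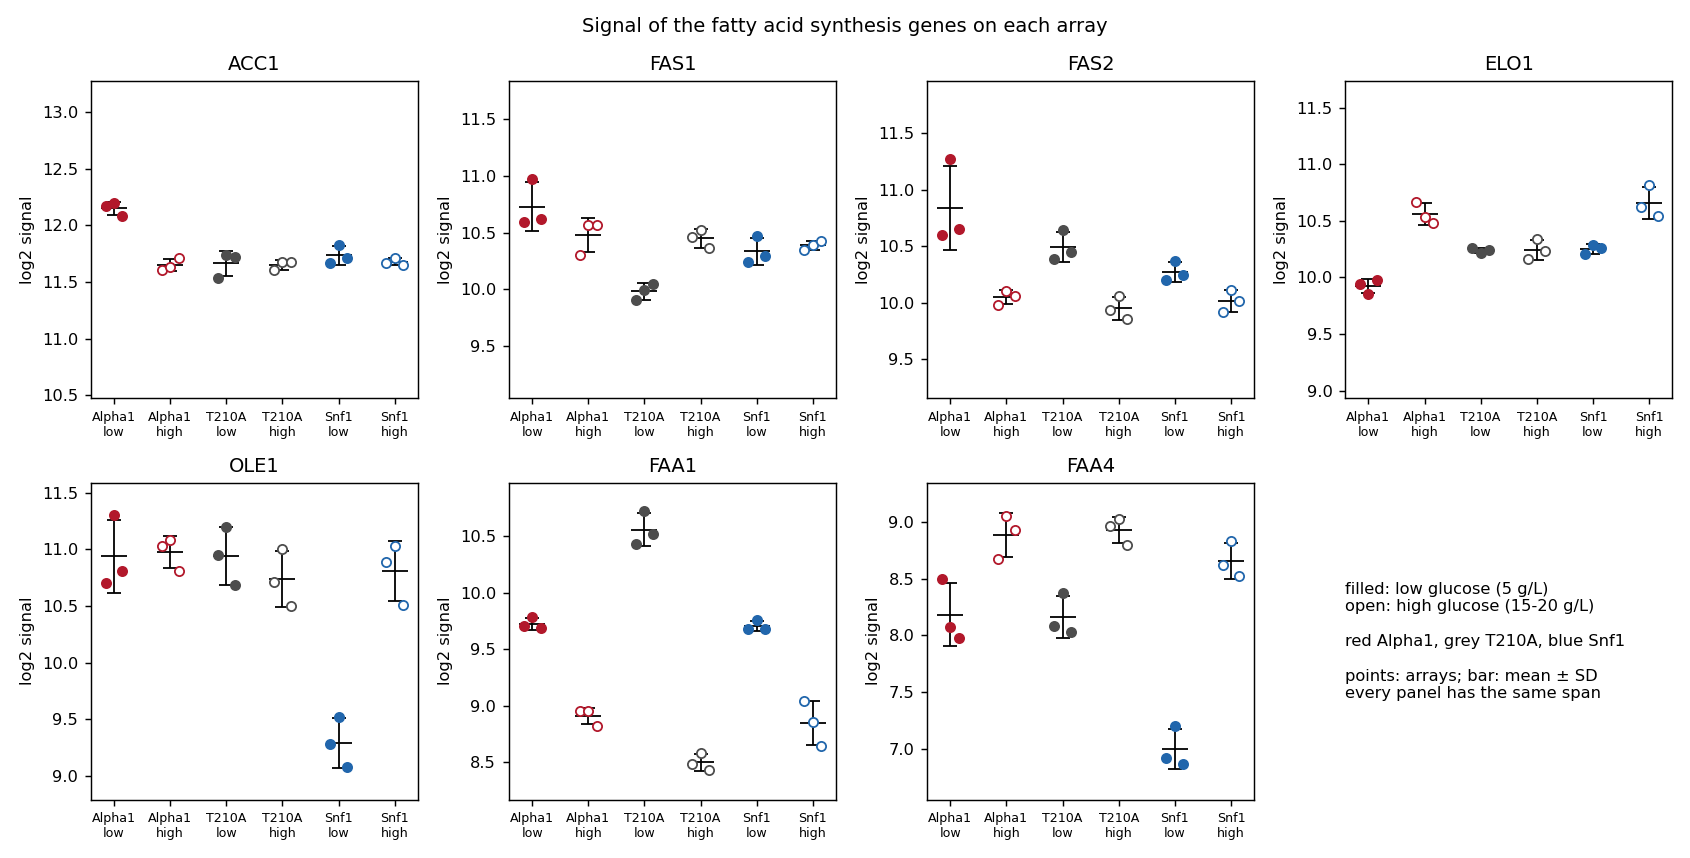
Log2 signal (vertical axis) of each of the 7 genes on every array, with low glucose left of high glucose for Alpha1, T210A and Snf1. Points are arrays (n = 3 per group) and bars are group means ± SD. OLE1 and FAA4 had their lowest group in Snf1 at low glucose, FAA1 its highest in T210A at low glucose, and ACC1 its highest in Alpha1 at low glucose.

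ACC1 had the smallest range of the 7 over the 18 arrays (0.66, against 0.96 to 2.29 for the others), and 5 of its 6 groups lay close together. In Alpha1 the log2 signals of ACC1 were 12.17, 12.20 and 12.08 at low glucose, against 11.61, 11.63 and 11.71 at high glucose. In T210A they were 11.54, 11.74 and 11.72 at low glucose, against 11.60, 11.68 and 11.68 at high glucose. In Snf1 they were 11.67, 11.83 and 11.71 at low glucose, against 11.67, 11.71 and 11.65 at high glucose. The Alpha1 arrays at low glucose stood above all the other 15, and no other pair of neighbouring group means was separated.

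The rise of ACC1 at low glucose in Alpha1 came to 0.50 ± 0.06, or 1.42-fold (adjusted p = 4.55e-06). No change of ACC1 with glucose was called in T210A (0.01, 95% interval -0.11 to 0.14, adjusted p = 0.871) or in Snf1 (0.06, interval -0.07 to 0.18, adjusted p = 0.402). A p that misses the threshold does not show that ACC1 stayed the same. Under quantile normalization ACC1 was called higher at low glucose in T210A and in Snf1 as well, by 0.24 in each (adjusted p = 0.00866 and 0.00836). Over the 27 alternatives tried, the adjusted p ran from 0.00866 to 0.913 in T210A and from 0.00836 to 0.935 in Snf1.

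Strain differences in ACC1 were called at low glucose and not at high glucose. At low glucose ACC1 was 0.41 ± 0.06 higher in Alpha1 than in Snf1 (1.33-fold, adjusted p = 1.27e-04) and 0.48 ± 0.06 higher in Alpha1 than in T210A (1.40-fold, adjusted p = 2.17e-05). T210A minus Snf1 was -0.07 (interval -0.19 to 0.06, adjusted p = 0.334), but was called with array weights (-0.13, adjusted p = 0.0142, the lowest of the alternatives). At high glucose none of the 3 differences between strains was called, the largest in size being -0.03 for Alpha1 minus Snf1 (interval -0.15 to 0.10). The glucose response of ACC1 itself was larger in Alpha1 than in Snf1 by 0.44 ± 0.08 (adjusted p = 0.00253) and larger than in T210A by 0.49 ± 0.08 (adjusted p = 9.55e-04).

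FAS1 and FAS2 encode the subunits of one enzyme, and they did not move by the same amounts. In Alpha1 the log2 signals of FAS1 were 10.60, 10.98 and 10.62 at low glucose, against 10.30, 10.57 and 10.56 at high glucose. In T210A they were 9.90, 9.99 and 10.05 at low glucose, against 10.46, 10.53 and 10.36 at high glucose. In Snf1 they were 10.24, 10.47 and 10.30 at low glucose, against 10.35, 10.39 and 10.43 at high glucose. The T210A arrays at low glucose lay below all others and the Alpha1 arrays at low glucose above all others, while the 4 remaining groups overlapped.

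FAS1 fell by 0.47 ± 0.10 at low glucose in T210A (1.38-fold, adjusted p = 9.75e-04). In Alpha1 it rose by 0.25 ± 0.10 (1.19-fold, adjusted p = 0.0436), and in Snf1 the difference of -0.05 was not called (interval -0.27 to 0.16, adjusted p = 0.669). The rise in Alpha1 was a marginal call: it ended in 14 of the 27 alternatives, with adjusted p-values from 0.0138 to 0.276. Among them, the difference was 0.13 without Alpha1 replicate 2 at low glucose and 0.16 without Alpha1 replicate 1 at high glucose, and 7 arrays of other groups each ended the call when left out.

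At low glucose FAS1 was 0.39 ± 0.10 higher in Alpha1 than in Snf1 (adjusted p = 0.00966), 0.35 ± 0.10 lower in T210A than in Snf1 (-0.35, adjusted p = 0.00894), and 0.75 ± 0.10 higher in Alpha1 than in T210A (1.68-fold, adjusted p = 5.93e-05). No strain difference in FAS1 was called at high glucose. Fitted on the compared groups alone, the difference between Alpha1 and Snf1 was not called (adjusted p = 0.132, within a range of 0.00235 to 0.132 over the alternatives).

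FAS2 was higher at low glucose in all 3 strains by its means, and this was called in 2 of them. In Alpha1 the log2 signals of FAS2 were 10.60, 11.27 and 10.65 at low glucose, against 9.98, 10.10 and 10.06 at high glucose. In T210A they were 10.39, 10.64 and 10.45 at low glucose, against 9.94, 10.06 and 9.86 at high glucose. In Snf1 they were 10.20, 10.37 and 10.24 at low glucose, against 9.92, 10.12 and 10.02 at high glucose. Low and high glucose arrays did not overlap in any strain, and replicate 2 of Alpha1 at low glucose stood well above the other arrays of its group.

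The rise of FAS2 was 0.79 ± 0.14 in Alpha1 (1.73-fold, adjusted p = 2.19e-04) and 0.54 ± 0.14 in T210A (1.45-fold, adjusted p = 0.00346). In Snf1 it was 0.25 (interval -0.05 to 0.56, adjusted p = 0.124), and with the replicate number as a block it was called (adjusted p = 0.0329, with 0.00193 to 0.528 over the alternatives). The spread of the Alpha1 arrays enters the error of every FAS2 comparison. At low glucose FAS2 was 0.57 ± 0.14 higher in Alpha1 than in Snf1 (1.48-fold, adjusted p = 0.00758), but 0.35 without Alpha1 replicate 2, and not called with the compared groups alone (adjusted p = 0.149, the highest of the alternatives). Alpha1 minus T210A at low glucose was 0.35 (interval 0.05 to 0.65, adjusted p = 0.0617), with an adjusted p of 0.0112 under the replicate block and 0.00947 to 0.284 over the alternatives. T210A minus Snf1 was 0.22 (interval -0.08 to 0.52, adjusted p = 0.203) although the arrays of these groups did not overlap, and it was called with array weights and without Alpha1 replicate 2 at low glucose (adjusted p = 0.0272 and 0.0263). For the glucose response of FAS2, Alpha1 minus Snf1 was 0.54 (adjusted p = 0.0946), and it was called with the replicate block (adjusted p = 0.0182) and under 3 other alternatives, with 0.0182 to 0.185 over all of them. The other response differences of FAS2 were not called, with adjusted p-values of 0.286 for T210A minus Snf1 and 0.434 for Alpha1 minus T210A.

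Because both subunit genes were read on the same array, their difference, FAS2 minus FAS1, was taken per array. Set against one another in this way, FAS2 gained on FAS1 at low glucose in every strain. The mean difference was 0.11 ± 0.16 at low and -0.43 ± 0.10 at high glucose in Alpha1, 0.51 ± 0.12 at low and -0.50 ± 0.03 at high glucose in T210A, and -0.06 ± 0.03 at low and -0.37 ± 0.09 at high glucose in Snf1 (SD, n = 3). The shift between glucose levels was therefore 0.54 in Alpha1, 1.01 in T210A and 0.31 in Snf1. In each strain the 3 arrays at low glucose lay above the 3 at high glucose, and the exact two-sided permutation test gave p = 0.10, the smallest value that 3 against 3 arrays allow. A log ratio of 2 probe sets shows unequal change and is not a ratio of transcript numbers.

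**Figure D2:**
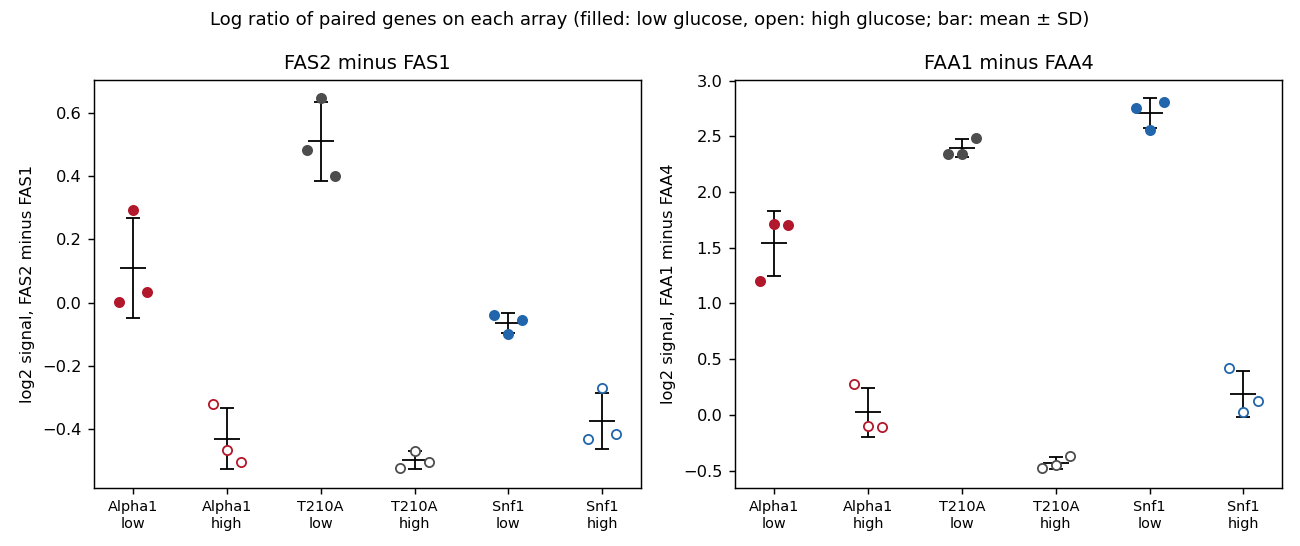
Per-array log2 difference between FAS2 and FAS1 and between FAA1 and FAA4 (vertical axes), at low and high glucose in each strain. Points are arrays and bars are means ± SD. In all 6 combinations of strain and gene pair, the arrays at low glucose sit above those at high glucose.

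ELO1 fell at low glucose in Alpha1 and in Snf1, and it was unequal between strains already at high glucose. The Alpha1 arrays gave ELO1 log2 signals of 9.94, 9.86 and 9.98 at low glucose, against 10.66, 10.53 and 10.48 at high glucose. Those of T210A gave 10.26, 10.22 and 10.24 at low glucose, against 10.16, 10.33 and 10.24 at high glucose. Those of Snf1 gave 10.20, 10.28 and 10.26 at low glucose, against 10.62, 10.81 and 10.54 at high glucose. Snf1 and Alpha1 at high glucose formed an upper level, Alpha1 at low glucose stood alone at the bottom, and both T210A groups overlapped Snf1 at low glucose.

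The fall of ELO1 at low glucose was -0.63 ± 0.07 in Alpha1 (1.55-fold, adjusted p = 2.45e-06) and -0.41 ± 0.07 in Snf1 (1.33-fold, adjusted p = 1.23e-04). In T210A the interval of the difference ran from -0.15 to 0.14 (adjusted p = 0.990). At high glucose ELO1 was lower in T210A than in Snf1 by -0.41 ± 0.07 (1.33-fold, adjusted p = 0.00203) and 0.32 ± 0.07 higher in Alpha1 than in T210A (1.24-fold, adjusted p = 0.0118). Neither call at high glucose held when the compared groups were fitted alone, with an adjusted p of 0.0888 for T210A against Snf1, where the other alternatives kept the call. The call between Alpha1 and T210A also ended without replicate 1 of either group.

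At low glucose ELO1 was lower in Alpha1 than in Snf1 by -0.33 ± 0.07 (adjusted p = 0.00297) and lower than in T210A by -0.31 ± 0.07 (adjusted p = 0.00251). The T210A and Snf1 strains differed there by -0.01 (interval -0.16 to 0.14, adjusted p = 0.936). The glucose response of ELO1 differed between T210A and Snf1 by 0.40 ± 0.10 (adjusted p = 0.00500) and between Alpha1 and T210A by -0.63 ± 0.10 (adjusted p = 5.20e-04). Between Alpha1 and Snf1 it differed by -0.23, which was not called (interval -0.44 to -0.02, adjusted p = 0.154), except without Snf1 replicate 2 at high glucose (-0.30, adjusted p = 0.0351).

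OLE1 had one group apart from the other 5. The Alpha1 arrays read OLE1 as log2 10.70, 11.31 and 10.81 at low glucose, against 11.03, 11.08 and 10.81 at high glucose. The T210A arrays read it as 10.95, 11.20 and 10.68 at low glucose, against 10.72, 11.00 and 10.50 at high glucose. The Snf1 arrays read it as 9.28, 9.52 and 9.08 at low glucose, against 10.89, 11.03 and 10.51 at high glucose. The Snf1 arrays at low glucose all lay under every other array, and the neighbouring groups above them overlapped each other.

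OLE1 fell at low glucose by 1.52 ± 0.20 in Snf1 (2.86-fold, adjusted p = 1.01e-05). Neither other strain gave a call, with -0.04 in Alpha1 (interval -0.46 to 0.39, adjusted p = 0.911) and 0.20 in T210A (interval -0.22 to 0.63, adjusted p = 0.375). The T210A difference came closest to a call with the replicate number as a block (adjusted p = 0.0514, the lowest of the alternatives). At low glucose the desaturase transcript was 1.65 ± 0.20 higher in Alpha1 than in Snf1 (3.13-fold, adjusted p = 3.01e-05) and 1.65 ± 0.20 higher in T210A than in Snf1 (3.14-fold, adjusted p = 8.52e-06). Alpha1 and T210A could not be told apart there (interval of the difference -0.43 to 0.42). The response in Alpha1 minus that in Snf1 was 1.48 ± 0.28 (adjusted p = 0.00266), and the response in T210A minus that in Snf1 was 1.72 ± 0.28 (adjusted p = 2.76e-04). Both of these differences rest on the same Snf1 arrays. The response of Alpha1 minus that of T210A was -0.24 and was not called (interval -0.84 to 0.36, adjusted p = 0.616).

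FAA1 and FAA4 encode acyl-CoA synthetases with overlapping roles, and they moved in opposite directions with glucose in all 3 strains. In Alpha1 the log2 signals of FAA1 were 9.71, 9.78 and 9.68 at low glucose, against 8.95, 8.95 and 8.82 at high glucose. In T210A they were 10.43, 10.72 and 10.52 at low glucose, against 8.49, 8.58 and 8.43 at high glucose. In Snf1 they were 9.68, 9.75 and 9.68 at low glucose, against 9.04, 8.86 and 8.65 at high glucose. T210A held both ends of the range, the highest group at low glucose and the lowest at high glucose, and the other strains overlapped each other at each glucose level.

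FAA1 rose at low glucose by 0.81 ± 0.09 in Alpha1 (1.76-fold, adjusted p = 2.96e-06), by 2.06 ± 0.09 in T210A (4.16-fold, adjusted p = 4.24e-10) and by 0.86 ± 0.09 in Snf1 (1.81-fold, adjusted p = 1.32e-06). The response in T210A exceeded that in Snf1 by 1.20 ± 0.13 (adjusted p = 9.28e-06), and the response in Alpha1 minus that in T210A was -1.24 ± 0.13 (adjusted p = 2.16e-05). Alpha1 and Snf1 differed in their response by -0.04 (interval -0.32 to 0.24, adjusted p = 0.908).

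At low glucose FAA1 was 0.85 ± 0.09 higher in T210A than in Snf1 (1.81-fold, adjusted p = 2.95e-06), and Alpha1 minus T210A was -0.83 ± 0.09 (1.78-fold, adjusted p = 9.23e-06). At high glucose the order was turned round, with T210A lower than Snf1 by -0.35 ± 0.09 (1.27-fold, adjusted p = 0.0467) and Alpha1 higher than T210A by 0.41 ± 0.09 (1.33-fold, adjusted p = 0.0124). The first of these is a marginal call that ended in 20 of the 27 alternatives, with adjusted p-values from 0.00279 to 0.233. It reached 0.220 when chromosome VIII genes were left out of the test. It also ended without any 1 of the T210A arrays or of Snf1 replicates 1 and 2 at high glucose. The second ended without Alpha1 replicate 1, Alpha1 replicate 2 or T210A replicate 3 at high glucose.

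FAA4 had log2 signals in Alpha1 of 8.50, 8.07 and 7.98 at low glucose, against 8.68, 9.06 and 8.93 at high glucose. Its T210A signals were 8.09, 8.37 and 8.03 at low glucose, against 8.96, 9.03 and 8.80 at high glucose. Its Snf1 signals were 6.92, 7.20 and 6.86 at low glucose, against 8.62, 8.83 and 8.52 at high glucose. All 3 groups at high glucose overlapped near the top, Alpha1 and T210A at low glucose lay below them and overlapped each other, and the Snf1 arrays at low glucose lay below all the rest.

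FAA4 fell at low glucose by 0.70 ± 0.15 in Alpha1 (1.63-fold, adjusted p = 0.00101), by 0.77 ± 0.15 in T210A (1.70-fold, adjusted p = 4.30e-04) and by 1.66 ± 0.15 in Snf1 (3.17-fold, adjusted p = 2.62e-07). The decrease was smaller than in Snf1 by 0.96 ± 0.21 in Alpha1 (adjusted p = 0.00809) and by 0.90 ± 0.21 in T210A (adjusted p = 0.00451). At low glucose FAA4 was higher than in Snf1 by 1.19 ± 0.15 in Alpha1 (2.28-fold, adjusted p = 5.05e-05) and by 1.17 ± 0.15 in T210A (2.25-fold, adjusted p = 1.82e-05). No strain difference in FAA4 was called at high glucose. Alpha1 and T210A were not separated at low glucose either (0.02, interval -0.30 to 0.35, adjusted p = 0.952).

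Taken per array, FAA1 minus FAA4 averaged 1.54 ± 0.29 at low and 0.02 ± 0.22 at high glucose in Alpha1, 2.39 ± 0.08 at low and -0.43 ± 0.06 at high glucose in T210A, and 2.71 ± 0.13 at low and 0.19 ± 0.21 at high glucose in Snf1 (SD, n = 3). The shifts were 1.52, 2.82 and 2.52 in Alpha1, T210A and Snf1. They were built from different parts: in T210A the rise of FAA1 was the larger component, and in Snf1 the fall of FAA4. In each strain the arrays at low glucose did not overlap those at high glucose, and the exact two-sided permutation test again gave p = 0.10, which was also the value adjusted over the 6 tests of both gene pairs.

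The counts called with glucose are given beside the share of all genes. In Alpha1, 6 of the 7 were called, 4 higher and 2 lower at low glucose, where 63.5% of all genes were called, 34.3% higher and 29.2% lower. In T210A, 4 were called, 2 in each direction, against 70.5% of all genes, with 37.7% higher and 32.8% lower. In Snf1, 4 were called, 1 higher and 3 lower, against 67.3% of all genes, with 34.7% higher and 32.7% lower. The median difference over the 7 was 0.25 in Alpha1, 0.01 in T210A and -0.05 in Snf1, beside 0.03, 0.04 and 0.00 over all genes. FAA1 was called higher and FAA4 lower in all 3 strains, and OLE1 was called lower in Snf1 and not called in the other strains. FAS1 was called in opposite directions in Alpha1, where the call was marginal, and in T210A.

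**Figure D3:**
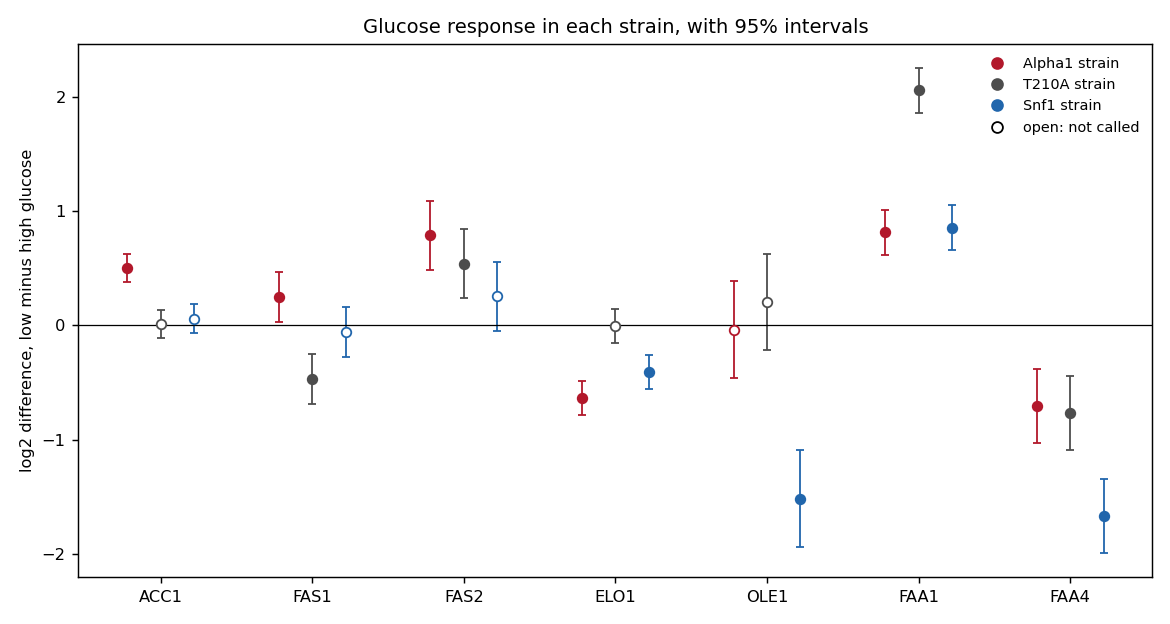
Low minus high glucose difference in log2 signal (vertical axis) of the 7 genes in Alpha1, T210A and Snf1, with 95% intervals from the limma fit over 18 arrays. Filled points passed the adjusted p threshold of 0.05. FAA1 lies above and FAA4 below zero in every strain, and OLE1 lies at -1.52 in Snf1.

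Between strains, calls were few at high glucose and more frequent at low glucose. At high glucose, Alpha1 against Snf1 gave no call among the 7, where 0.918% of all genes, or 50, were called (0.312% higher and 0.606% lower) and 408 had an unadjusted p under 0.05. The 95% intervals of these 7 differences reached from -0.27 to 0.59, the upper bound being that of OLE1. T210A against Snf1 gave 2 calls, ELO1 and FAA1, both lower in T210A, where 4.18% of all genes were called, 3.56% higher and 0.624% lower. The 194 genes called higher and 34 called lower there became 7 and 11 without chromosome VIII genes, and 289 and 283 with array weights. Alpha1 against T210A gave 2 calls, again ELO1 and FAA1, both higher in Alpha1, where 6.31% of all genes were called, 1.50% higher and 4.81% lower. These 82 and 262 genes became 41 and 39 without chromosome VIII genes, and 690 and 551 with array weights. The last pair of comparisons shares the T210A arrays.

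At low glucose, 6 of the 7 were called between Alpha1 and Snf1, with ACC1, FAS1, FAS2, OLE1 and FAA4 higher and ELO1 lower in Alpha1, against 30.0% of all genes called, 17.0% higher and 12.9% lower. FAA1 was the exception there, with a difference of 0.02 (interval -0.17 to 0.22, adjusted p = 0.917). Between T210A and Snf1, 4 were called, with OLE1, FAA1 and FAA4 higher and FAS1 lower in T210A, against 56.3% of all genes, 29.7% higher and 26.5% lower. Between Alpha1 and T210A, 4 were called, with ACC1 and FAS1 higher and ELO1 and FAA1 lower in Alpha1, against 41.5% of all genes, 20.8% higher and 20.8% lower. Each strain takes part in 2 of these comparisons, so they are not independent of one another. Fitted on the compared groups alone, the count between Alpha1 and Snf1 was 4 of 7. In that fit 603 of the 5449 genes were called, 392 higher and 211 lower.

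**Figure D4:**
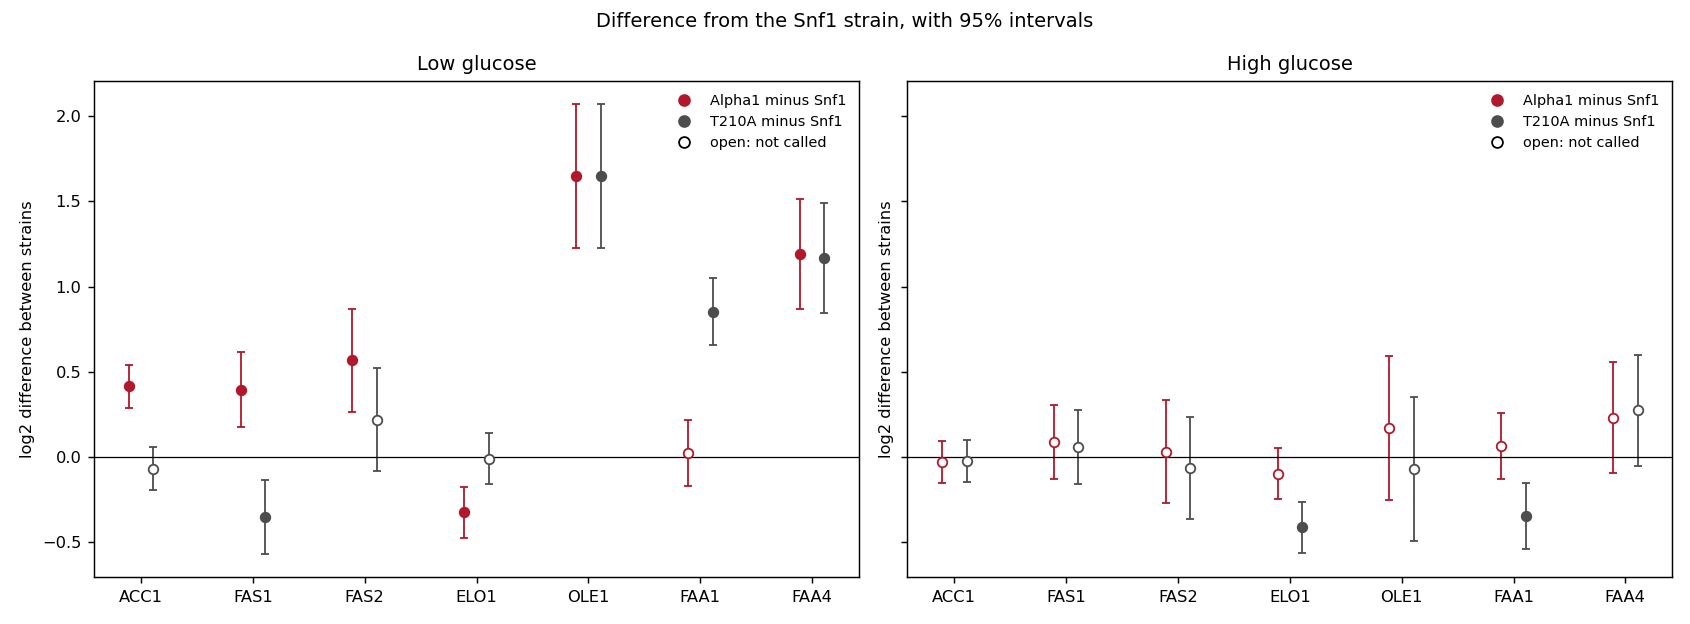
Alpha1 minus Snf1 and T210A minus Snf1 differences in log2 signal (vertical axis) for the 7 genes, at low and at high glucose, with 95% intervals from the limma fit over 18 arrays. Filled points passed the adjusted p threshold of 0.05. At low glucose OLE1 lies at 1.65 in both altered strains and FAA4 at 1.19 in Alpha1 and 1.17 in T210A.

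The glucose responses themselves were tested against each other. Alpha1 minus Snf1 was called for 3 genes, ACC1, OLE1 and FAA4, all positive, where 13.7% of all genes were called, 9.32% positive and 4.37% negative. T210A minus Snf1 was called for 5 genes, OLE1, ELO1, FAA1 and FAA4 positive and FAS1 negative, where 39.5% of all genes were called, 21.2% positive and 18.3% negative. Alpha1 minus T210A was called for 4 genes, ACC1 and FAS1 positive and ELO1 and FAA1 negative, where 20.3% of all genes were called, 10.9% positive and 9.41% negative. For FAS1, T210A minus Snf1 was -0.41 ± 0.14 (adjusted p = 0.0357) and Alpha1 minus T210A was 0.72 ± 0.14 (adjusted p = 0.00313). The FAS1 call for T210A minus Snf1 ended in 9 of the 27 alternatives, with adjusted p-values up to 0.0885, and 8 of these each left out 1 array. They were T210A replicates 1 and 2 and Snf1 replicates 1 and 2 at high glucose, and T210A replicates 1 and 2 and Snf1 replicates 2 and 3 at low glucose. The ACC1 response of Alpha1 was therefore unlike that of both other strains, and the OLE1 and FAA4 responses of Snf1 were unlike those of both altered strains.

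Genes around this pathway were described by counts. Of 53 genes in 8 lists, 24 were called higher and 12 lower at low glucose in Alpha1, 25 higher and 9 lower in T210A, and 26 higher and 11 lower in Snf1. These counts stand beside the 63.5%, 70.5% and 67.3% of all genes called in Alpha1, T210A and Snf1. Of all genes, 34.3% were called higher and 29.2% lower in Alpha1, 37.7% and 32.8% in T210A, and 34.7% and 32.7% in Snf1. The same shares apply to the glucose counts of each list below. Median differences of the 53 were 0.33, 0.39 and 0.19 in Alpha1, T210A and Snf1, beside 0.03, 0.04 and 0.00 over all genes. The direction depended on the list: calls in very long chain elongation were all lower, calls in beta-oxidation were all higher, and those in the supply of acetyl-CoA were mixed.

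None of the 5 genes of very long chain elongation was called higher at low glucose, and 3 were called lower in Alpha1, 3 in T210A and 2 in Snf1. The list had median differences of -0.66, -0.85 and -0.30 in Alpha1, T210A and Snf1. ELO2, which elongates long chains for sphingolipids, fell by 1.05 in Alpha1, 2.41 in T210A (5.31-fold) and 1.38 in Snf1. ELO3, which carries the elongation further, fell by 1.09 in Alpha1, 1.38 in T210A and 1.83 in Snf1 (3.55-fold). Unlike ELO1, both elongases were therefore called lower in T210A too. At low glucose the level of ELO2 was lower in T210A than in Snf1 by -1.24, and ELO3 in Alpha1 exceeded its Snf1 level by 0.68.

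The other acyl-CoA synthetases also split in direction. FAA3, which acts on long-chain fatty acids, fell by 1.49 in Alpha1, by 2.21 in T210A and by 0.79 in Snf1. FAA2, a peroxisomal medium-chain enzyme, rose by 0.55 in Alpha1, 0.85 in T210A and 0.70 in Snf1, with means close to the floor at high glucose, and under quantile normalization it was not called in Alpha1 or T210A. Of the 4 genes in this list, 2 were called higher and 1 lower in Alpha1, 1 higher and 1 lower in T210A, and 2 higher and 1 lower in Snf1.

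In the supply of acetyl-CoA, the substrate of Acc1, ACS1 rose and ACS2 fell at low glucose in every strain. ACS1, the glucose-repressed acetyl-CoA synthetase, rose by 1.24 in Alpha1, 1.51 in T210A and 1.25 in Snf1. ACS2, its counterpart in glucose-grown cells, fell by 0.49 in Alpha1, 0.46 in T210A and 0.67 in Snf1. ALD6, a cytosolic aldehyde dehydrogenase that makes acetate, fell by 1.56 in Alpha1 (2.94-fold) and 3.14 in T210A (8.79-fold, adjusted p = 4.35e-07), and its difference of 0.18 in Snf1 was not called. The SD of ALD6 was 0.86 in Alpha1 at low glucose, against 0.10 to 0.15 in the other groups. At low glucose ALD6 was 10.5-fold lower in T210A than in Snf1 (-3.39, adjusted p = 4.27e-07), a larger strain difference at low glucose than that of any other gene of the 8 lists or of the 7.

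The mitochondrial pathway of fatty acid synthesis, which feeds lipoic acid synthesis, had more calls higher than lower at low glucose. So had all genes in the same fit. Their shares called higher and lower were 34.3% and 29.2% in Alpha1, 37.7% and 32.8% in T210A, and 34.7% and 32.7% in Snf1. Of the 8 genes of the pathway, 5 were called higher and 2 lower in Alpha1, 6 higher and none lower in T210A, and 4 higher and 1 lower in Snf1. One of the 6 in T210A, OAR1, had means below the floor line at both glucose levels (2.72 at low and 2.26 at high glucose). Median differences of the list were 0.52, 0.54 and 0.32 in Alpha1, T210A and Snf1. ETR1, the enoyl reductase, rose by 1.89 in Alpha1, 1.92 in T210A and 2.72 in Snf1. HFA1, the mitochondrial counterpart of ACC1, fell by 0.48 in Alpha1 and 0.47 in Snf1, and its difference of -0.13 in T210A was not called.

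Among the 8 genes listed as transcriptional regulators, 3 were called higher in Alpha1, 5 in T210A and 3 in Snf1. INO2 was called lower in Snf1, where its mean was close to the floor. Of the 8, PIP2 rose most in T210A, with means of 6.30 at low and 4.56 at high glucose. Its means at low and high glucose were 5.00 and 4.57 in Alpha1, and 4.85 and 4.49 in Snf1. INO4, a partner of Ino2 in the activation of phospholipid and fatty acid synthesis genes, rose by 1.36 in Alpha1, 1.00 in T210A and 1.12 in Snf1. SPT23, which activates OLE1, rose by 0.41 in Alpha1, 0.64 in T210A and 0.74 in Snf1. Its relative MGA2, with the same role, had no call in any strain, except in T210A under quantile normalization. OPI1, the repressor of Ino2 and Ino4 targets, at low glucose exceeded its Snf1 level by 0.54 in Alpha1 (adjusted p = 0.00299) and by 0.59 in T210A (adjusted p = 6.21e-04). It was also 0.55 higher in T210A than in Snf1 at high glucose (adjusted p = 0.0114). OPI1 lies on chromosome VIII, whose median difference at low glucose was 0.02 for Alpha1 minus Snf1 and 0.57 for T210A minus Snf1. The part of the second shift in the T210A values of OPI1 was not tested.

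Degradation and storage genes made up the rest. Of 9 genes of beta-oxidation, 7 were called higher in Alpha1, 6 in T210A and 9 in Snf1, and none lower, with SPS19, a dienoyl-CoA reductase, up by 2.29, 2.21 and 2.40 in Alpha1, T210A and Snf1. Median differences of that list were 1.46, 2.01 and 1.65 in Alpha1, T210A and Snf1. The SD of SPS19 was 0.83 in Alpha1 at low glucose, against 0.09 to 0.16 in the other groups. The 9 in Snf1 include CTA1, with means below the floor line at both glucose levels (2.42 at low and 2.26 at high glucose), which was not called with median centring. POX1, POT1 and DCI1 were close to the floor at high glucose in all 3 strains. Of 9 genes of glycerolipid acyl transfer and storage, 3 were called higher and 2 lower in Alpha1, 3 higher and 1 lower in T210A, and 3 higher and 3 lower in Snf1. GPT2, a glycerol-3-phosphate acyltransferase, rose by 1.50, 1.39 and 2.11 in Alpha1, T210A and Snf1. Of 6 lipase genes, 3 were called higher and 2 lower in Alpha1 and likewise in T210A, and 4 higher and 2 lower in Snf1.

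**Figure D5:**
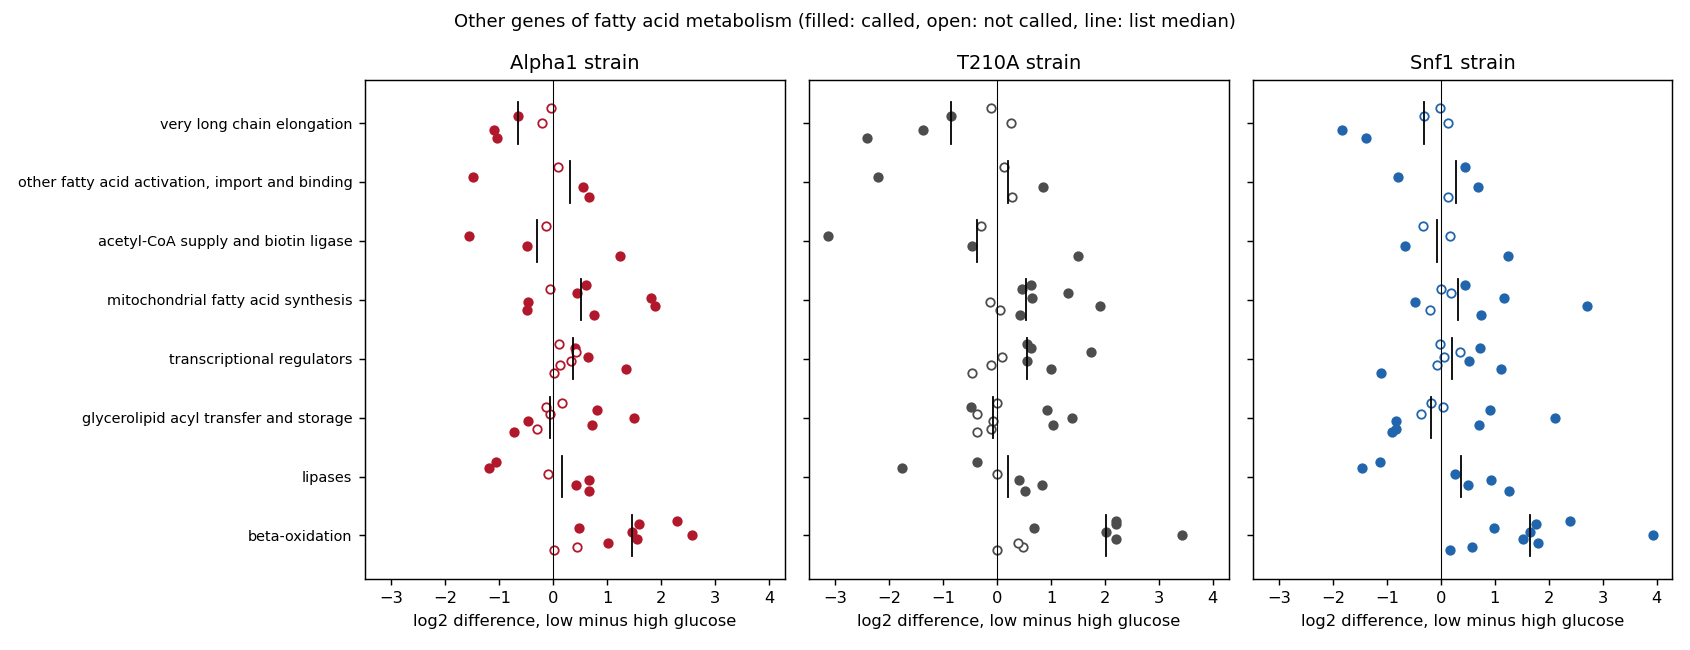
Low minus high glucose difference in log2 signal (horizontal axis) of the 53 genes of the 8 neighbouring lists in Alpha1, T210A and Snf1. Each point is a gene, filled where it passed the adjusted p threshold of 0.05, and the short line is the median of its list. Called beta-oxidation genes lie to the right of zero and called very long chain elongation genes to the left.

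The 3 genes whose log2 signals followed each of the 7 most closely over the 18 arrays were listed by Pearson's r, as a description without a test. They were SAM2 (0.919), AAD6 (0.858) and XPT1 (0.852) for ACC1. For FAS1 they were SRO77 (0.928), HXK2 (0.923) and RSE1 (0.920), and for FAS2 VTC3 (0.966), ZRT1 (0.961) and ICP55 (0.957). For OLE1 they were HXT3 (0.916), PUT3 (0.909) and MUD2 (0.906), and for ELO1 CIN2 (0.882), AGP1 (0.849) and STE3 (0.842). For FAA1 they were JIP4 (0.973), YLR152C (0.971) and SPG3 (0.970), and for FAA4 ZPR1 (0.966), SOF1 (0.958) and UTP15 (0.957). None of the 7 appeared in the list of another. Among themselves, OLE1 and FAA4 had the highest correlation (r = 0.81), FAS1 and FAS2 had 0.28, and ELO1 and FAS2 had the lowest (r = -0.71). All genes share the 6 groups and the arrays, which alone can give high correlations.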

How the data were processed

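Total RNA of 18 yeast samples, 3 for each of 6 strain and glucose groups, was read on Affymetrix arrays. The deposited table holds a log2 signal for each probe set and array, made by the authors with RMA in the affy package per the submitters' processing notes, and were used without further scaling. Versions, build and annotation are not given in the sources used here. Of 5716 probe sets, 5498 named 1 gene and 218 none, and 12 symbols were updated. Where a gene had several probe sets (47 genes), the one with the highest mean was used, which left 5449 genes. Array medians ran from 6.77 to 7.03.

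Group means were fitted over all 18 arrays with limma 3.58.1 in R 4.3.3 (lmFit and eBayes, 12 residual and 1.18 prior degrees of freedom). The 12 comparisons were 9 contrasts of a pair of groups and 3 differences between glucose responses. Benjamini-Hochberg adjustment ran over 5449 genes within each comparison, with calls at an adjusted p under 0.05 and 95% intervals unadjusted. The fit was tested on simulated data with independent noise and the same spread of a gene in every group. That test does not cover unequal spread between groups or shared deviations of same-numbered arrays. The SE of a gene pools its spread over all groups, and therefore understates the spread of FAS1, FAS2, OLE1 and FAA4 in Alpha1 at low glucose. The same holds there for list genes such as ALD6 and SPS19. Log ratios of gene pairs were tested by exact permutation.

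The members and lists were chosen with earlier results of these data known, and are described by counts. Genes outside the 7 were named from the lists or as the 3 best correlated with a member. From the lists came up to 2 called genes per direction and comparison, those of largest difference. List genes outside this rule, such as MGA2, were named for a known role or for a signal near the floor. They were chosen after their values were seen. INO1 and SNF1 were named as planned checks of the labels.

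Replicate numbers come from the labels. Same-numbered arrays deviated together (all 3 correlations over 0.1) in 8 of 15 pairs of groups, which made 5 of the 12 comparisons paired by this check. The alternatives were a replicate block, quantile normalization, median centring, an intensity trend with robust prior, array weights, the dimmest 10% of genes left out, mean of probe sets, no chromosome VIII genes, compared groups alone, and each array left out.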

Additional observations from a re-analysis of the deposited data

Results flagged for a closer look

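The glucose response of some of the 7 genes differed between strains by a test of the difference itself (limma, n = 3 arrays per group, log2 low minus high glucose of the first strain minus that of the second). For Alpha1 minus Snf1 these were ACC1 at 0.44, OLE1 at 1.48 and FAA4 at 0.96. ACC1 was called higher at low glucose in Alpha1 and not called in Snf1, while OLE1 was called lower in Snf1 and not called in Alpha1. FAA4 fell in both strains, and by more in Snf1.

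For T210A minus Snf1 they were FAS1 at -0.41, OLE1 at 1.72, ELO1 at 0.40, FAA1 at 1.20 and FAA4 at 0.90. FAA1 rose in both strains, and FAS1 was the member whose fall was called in T210A and not in Snf1. For Alpha1 minus T210A they were ACC1 at 0.49, FAS1 at 0.72, ELO1 at -0.63 and FAA1 at -1.24. FAS1 is the gene among the 7 whose glucose response was called in opposite directions in these strains, and its Alpha1 call was marginal. That call ended in 14 of the 27 alternatives, and the FAS1 call for T210A minus Snf1 ended in 9. Alpha1 at low glucose was the group with the largest SD for FAS1 (0.21), FAS2 (0.37), OLE1 (0.32) and FAA4 (0.28), but not for ACC1 (0.06), ELO1 (0.06) or FAA1 (0.05). With 3 arrays per group no single array was tested as an outlier.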

How the results depend on the processing

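Of 84 member differences (7 genes in 12 comparisons), 44 were called. Of these, 36 stayed called with the same sign under all 27 alternatives, 8 lost the call under at least 1, and none changed sign. Of the uncalled ones, 8 gained a call under some alternative and 18 changed sign. The cause of each change below was not tested.

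Of the 7 genes, the 2 called for T210A against Snf1 at high glucose became 1 with median centring, with a trend and robust prior, without the dimmest 10% of genes and without chromosome VIII genes, 0 with compared groups alone, and 1 to 2 with 1 array left out. For Alpha1 against T210A at high glucose, the 2 became 1 with compared groups alone, and 0 to 2 with 1 array left out (0 without Alpha1 replicate 1, 1 without Alpha1 replicate 2, T210A replicate 1 or T210A replicate 3, all at high glucose).

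With the replicate block, calls changed for FAS2 in low against high glucose in Snf1 (0.25, adjusted p = 0.0329) and in Alpha1 minus T210A at low glucose (0.35, adjusted p = 0.0112). In comparisons whose numbers did not pair by the check, the FAS2 response of Alpha1 minus Snf1 was called too (0.54, adjusted p = 0.0182, with 0.0182 to 0.185 over the alternatives), as it was with median centring and without Alpha1 replicate 1 or 3 at low glucose, and no other member call changed under the block. Without Alpha1 replicate 1 or 3 at low glucose, FAS2 was called for Alpha1 minus T210A (0.47 and 0.44), and without replicate 2 it was 0.13.

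Sign changes under array weights were 0.016 for OLE1 in Alpha1 and -0.034 for ACC1 and 0.051 for ELO1 in T210A (low minus high). Between Alpha1 and Snf1 at high glucose they were 0.011 for ACC1 and -0.059 for FAA1, and between Alpha1 and T210A 0.057 for ACC1 at high and -0.00893 for FAA4 at low glucose. For responses they were 0.080 for FAA1 (Alpha1 minus Snf1) and -0.0080 for FAA4 (Alpha1 minus T210A). Median centring gave -0.10 for ACC1 in T210A (low minus high), and 0.016 for ACC1 at high and 0.044 for OLE1 at low glucose between Alpha1 and T210A. Quantile normalization gave 0.014 for ACC1 between Alpha1 and T210A at high glucose and 0.058 for ELO1 between T210A and Snf1 at low glucose.

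With 1 array left out, the sign changed for low minus high glucose within -0.22 to 0.083 for OLE1 in Alpha1, -0.022 to 0.077 for ACC1 in T210A and -0.046 to 0.041 for ELO1 in T210A. At high glucose the ranges were -0.018 to 0.081 for FAS2 and -0.039 to 0.16 for FAA1 (Alpha1 minus Snf1), -0.039 to 5.96e-04 for ACC1 and -0.22 to 0.048 for OLE1 (T210A minus Snf1), and -0.035 to 0.016 for ACC1, -0.016 to 0.12 for FAS1 and -0.13 to 0.062 for FAA4 (Alpha1 minus T210A). At low glucose they were -0.0077 to 0.047 for FAA1 (Alpha1 minus Snf1), -0.034 to 0.0069 for ELO1 (T210A minus Snf1), and -0.19 to 0.12 for OLE1 and -0.14 to 0.13 for FAA4 (Alpha1 minus T210A). For responses they were -0.14 to 0.060 for FAA1 (Alpha1 minus Snf1), -0.080 to 0.019 for ACC1 (T210A minus Snf1) and -0.093 to 0.17 for FAA4 (Alpha1 minus T210A).

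Over all genes, calls moved by more than 1.5 times in these cases. Alpha1 against Snf1 at high glucose had 50, but 84 with centring, 396 with weights and 19 to 112 with 1 array left out. T210A against Snf1 at high glucose had 228, but 572 with weights and 18 without chromosome VIII. Alpha1 against T210A at high glucose had 344, but 543 with the block, 1241 with weights and 80 without chromosome VIII. At low glucose, compared groups alone gave 603 in place of 1632 for Alpha1 against Snf1 and 1244 in place of 2263 for Alpha1 against T210A. The response counts were 491 with compared groups alone and 1158 without Alpha1 replicate 1 at low glucose in place of 746 (Alpha1 minus Snf1), and 3252 with weights in place of 2153 (T210A minus Snf1).

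Under quantile normalization the split of calls at low against high glucose became 1619 higher and 2106 lower in Alpha1 (1868 and 1593 as reported) and 1713 higher and 2227 lower in T210A (2055 and 1786 as reported). The response calls of Alpha1 minus Snf1 became 524 positive and 410 negative (508 and 238 as reported), and 614 and 471 without Alpha1 replicate 3 at low glucose. At high glucose, the block gave 222 higher and 80 lower for T210A against Snf1 and 200 and 343 for Alpha1 against T210A (194 and 34, and 82 and 262, as reported). Alpha1 against Snf1 had 17 and 33 as reported, and 12 and 44 with compared groups alone. In T210A the median of all genes moved by -0.10 with quantile normalization and by -0.12 with centring. Over the 12 comparisons, no called gene of the 8 lists changed sign under either scaling.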

Other observations

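The position of replicate 2 within its group was looked at after its FAS2 and OLE1 values had been seen. Replicate 2 had the highest log2 signal in 6 of 6 groups for FAS2 and for OLE1, in 5 for FAA1 and FAA4, in 4 for ACC1 and FAS1, and in 3 for ELO1. The array median was also highest in replicate 2 in 5 of 6 groups. After each array was centred on its median, replicate 2 was highest in 5 groups for FAS2 and OLE1, in 4 for FAS1 and FAA4, in 2 for ELO1 and FAA1, and in 1 for ACC1. The labels give no reason for this and the cause was not tested.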
